A study of Mus musculus with 22 samples.

Results

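The genes described are 8 mouse DNA repair genes: the mismatch recognition genes Msh3 and Msh6, the MutL-type genes Mlh3, Pms1 and Pms2, and the DNA glycosylase genes Ung, Neil3 and Smug1. They were chosen by symbol for their place in mismatch and uracil repair, and all 8 were found among the 11208 genes of the table. The study sequenced RNA from NIH/3T3 cells, an immortalised mouse embryo fibroblast line, in 11 groups of 2 libraries each, 22 in all. One line carried a stably integrated construct for doxycycline-inducible E2F1 and the other an empty vector (EV). All cells, the 0 h controls included, were first kept for 48 h in 0.25% serum. The E2F1 line was then sampled at 0, 2, 6 and 12 h of 500 ng/ml doxycycline, and the EV line at the same times. EV cells were also sampled at 2, 6 and 12 h after addition of 10% serum, and these groups were compared with the EV 0 h libraries, which the doxycycline comparisons of that line also used. The design text says that starvation served to bring cells to a G0-like state and that induction or serum served to bring about re-entry. It does not say whether each line was a clone or a pool, nor whether replicates were separate cultures. P-values therefore measure only the spread between these libraries, which may be technical.

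Mismatch repair corrects bases that were paired wrongly during replication. MSH6 and MSH3 each join a shared MutS partner, giving MutSα, which binds single mismatches and short loops, and MutSβ, which binds longer loops. PMS2, PMS1 and MLH3 each join a shared MutL partner, and PMS2 provides the endonuclease activity that cuts the strand to be repaired. Uracil reaches DNA when dUTP is used in place of dTTP or when cytosine loses its amino group. UNG removes it, acting mainly around replication forks in the nucleus and also in mitochondria, and SMUG1 removes uracil and oxidised pyrimidines outside that context. NEIL3 is a glycosylase for oxidised bases and for crosslinks met by replication forks, and it is known from dividing cells.

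Levels are the deposited normalized counts, whose totals ran from 34014608 to 46057140 per library. Changes are differences of group means on the log2(value + 1) scale, with the standard error (SE) from limma, a linear model fitted across all genes and libraries. A gene is said to have risen or fallen where its Benjamini-Hochberg adjusted p, taken over all 11208 genes of that comparison, was under 0.05. With 2 libraries against 2, an exact permutation test of a single gene cannot give a two-sided p below 0.333. The E2f1 gene itself stood at 1703 and 1637 in the E2F1 line at 0 h, at 3806 and 3602 at 6 h and at 2683 and 2845 at 12 h of doxycycline. Its log2 change was 1.15 at 6 h (limma adjusted p = 9.61e-08) and 0.73 at 12 h (1.65e-05), and −0.03 at 2 h (0.946). It did not pass the test in the EV line under doxycycline, and 12 h of serum raised it by 1.43. The table counts the mouse gene, and whether it counted the construct is not given in the sources used here. The 10 fibroblast markers examined were all among the genes analysed, and 0 of 6 epithelial, 0 of 4 endothelial, 0 of 5 blood and 0 of 4 muscle markers were. The doxycycline libraries of each time were placed between the lines on genes at least 1 log2 unit higher in every remaining E2F1-line library than in every remaining EV-line library. Over 19 such genes the EV libraries of 2 h lay at a median of 14.5% and 11.9% of the way from EV 0 h to E2F1 0 h, whereas those of 6 and 12 h, over 10 and 14 genes, lay between −1.9% and 1.3%. The E2F1 libraries lay at 74.6% and 56.9% at 2 h, 83.2% and 81.3% at 6 h, and 62.7% and 73.0% at 12 h. Without the 2 h doxycycline libraries, 1 reported member value of the other comparisons lost its call and 1 gained it, and both are given below.

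Motif matches differed between the members' promoters. RefSeq windows from 250 bases before to 50 bases after the start (GRCm38.p6) were matched for all 8 genes. They were searched on both strands for 4 kinds of short motif, some of which overlap each other. The letters of an E2F site, written as TTTCCCGC, TTTCGCGC, TTTGCCGC and TTTGGCGC, matched in 2 of 8, Msh3 and Msh6, against 2.3% of 32851 promoters and 5.1% of the 8609 table genes with a window. CCAAT matched in 5 of 8, all but Msh3, Ung and Neil3, against 44.0% of table genes. TTTGAA or TTCGAA, the letters of the CHR element known from genes of late cell cycle phases, matched in 1 of 8, Neil3. That share is no higher than the 16.2% of table genes with a match. The Sp box GGGCGG matched in 7 of 8, all but Mlh3, against 72.0%. The stretches below come from members picked with their time courses known, which differed from each other. They are given 5′ to 3′ on the gene's strand. Capitals mark E2F letters in Msh6, Sp boxes in Ung and CHR letters in Neil3. The windows of Msh6 and Neil3 also hold Sp boxes, and that of Msh6 holds CCAAT. Whether a motif goes with a time course was not tested. The Msh6 stretch covers 5 to 34 bases after the start (chr17:87975054-87975083, plus strand), with the E2F match at 16 to 23.
Msh6: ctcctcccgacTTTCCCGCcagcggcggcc
In Ung the last 120 bases before the start (chr5:114130315-114130434, plus strand) hold 2 Sp boxes, and no E2F, CCAAT or CHR letters were found in its window.
Ung: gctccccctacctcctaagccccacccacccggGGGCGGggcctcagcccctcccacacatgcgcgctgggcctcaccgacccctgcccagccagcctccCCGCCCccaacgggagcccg
The Neil3 stretch covers −220 to −1 (chr8:53639066-53639285, minus strand), with the CHR letters, which read the same on both strands, at −202 to −197, and of its Sp boxes, left in lower case, the first spans −4 to 2, across the end of this stretch, and the others lie after the start.
Neil3: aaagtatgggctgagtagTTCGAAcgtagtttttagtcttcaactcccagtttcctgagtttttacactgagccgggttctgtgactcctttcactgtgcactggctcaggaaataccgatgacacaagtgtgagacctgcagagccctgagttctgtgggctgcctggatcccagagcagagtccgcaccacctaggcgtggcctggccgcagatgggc
A match describes letters only, and whether any factor bound these windows was not tested here.

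Doxycycline in the E2F1 line raised most of the mismatch repair members by 6 h and kept them up at 12 h, raised Ung at 6 h, and raised Neil3 at 12 h. At 6 h 5 of the 8 members rose and none fell, in a comparison in which 28.8% of all genes rose and 22.9% fell. At 12 h 5 rose and none fell, where 31.8% of all genes rose and 29.7% fell. With equal totals 2683 of all genes rose and 3781 fell at 6 h, in place of 3230 and 2569. The members' median log2 change was 1.09 at both times, and that of all genes was −0.03 and −0.02. At 2 h no member passed the limma test, where 1.86% of all genes did, and 2 members, Msh6 and Pms2, had an unadjusted p under 0.05. The plot of levels by time shows every library.

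**Figure D1:**
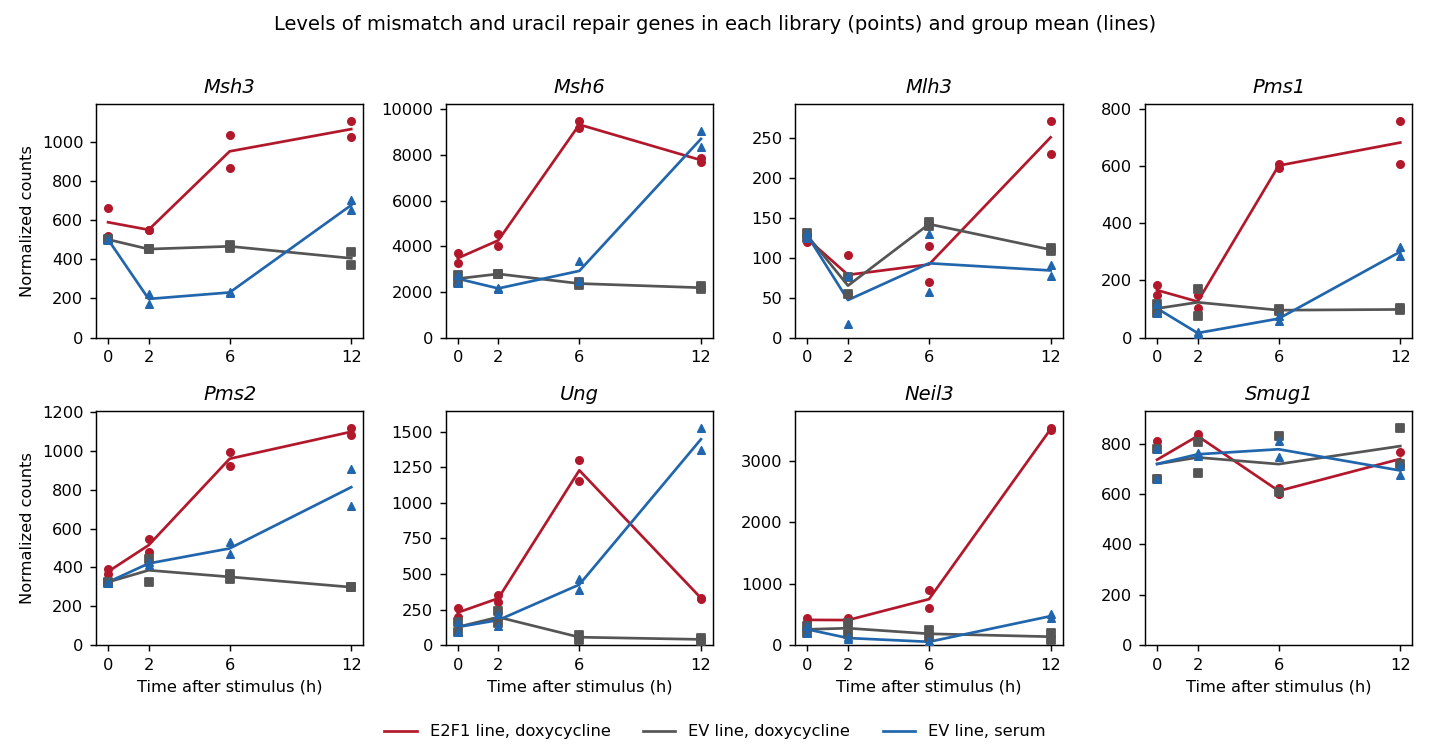
Normalized counts of the 8 genes (vertical axes from 0, each with its own scale) against hours after the stimulus. Points are single libraries and lines join group means of 2 libraries; the EV 0 h libraries start both the grey (doxycycline) and the blue (serum) course. Ung in the E2F1 line peaked at 6 h and Neil3 at 12 h, and Smug1 stayed between 600 and 860 in all 22 libraries.

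Msh6 (ENSMUSG00000005370.4, chr17:87975062-87990892, plus strand, GRCm38), whose product is the mismatch-binding subunit of MutSα, was the most abundant member. Per kilobase of merged exons it stood at 801 normalized counts in the E2F1 line at 0 h, and the other members at 16.4 to 120. In the E2F1 line Msh6 was at 3707 and 3256 at 0 h, at 4002 and 4523 at 2 h, at 9496 and 9179 at 6 h and at 7875 and 7686 at 12 h. Both later groups lay above every EV doxycycline library, which ranged from 2116 to 2797. Its log2 change was 1.43 at 6 h (SE 0.11, limma adjusted p = 7.34e-09) and 1.16 at 12 h (7.47e-08). The step down from 6 to 12 h of −0.26 did not pass the test (0.0746). The lines differed before induction, with EV values of 2404 and 2764 at 0 h and a log2 difference of 0.43 (limma adjusted p = 0.0151). Ung (0.89, limma adjusted p = 0.0686), Pms1 (0.71, 0.138) and Neil3 (0.70, 0.24) had larger differences at 0 h that did not pass, with no overlap between the libraries. The lowest value was that of Mlh3 (−0.05). Msh6 was the sole member called there, in a comparison in which 8.86% of all genes were called higher in the E2F1 line. Without E2F1 0 h replicate 1 the difference was 0.34 (adjusted p 0.155), and without EV 0 h replicate 1 it was 0.33 (0.138), so the call rests on these libraries.

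Msh3 (ENSMUSG00000014850.15, chr13:92211872-92355003, minus strand) encodes the loop-binding subunit of MutSβ and moved less. It was at 660 and 518 in the E2F1 line at 0 h, at 551 and 550 at 2 h, at 1036 and 866 at 6 h and at 1023 and 1106 at 12 h. The 6 and 12 h libraries overlapped with each other and lay above all others of this gene. The log2 change was 0.70 at 6 h (SE 0.15, limma adjusted p = 0.000778) and 0.86 at 12 h (6.58e-05). Both MutS genes rose, with larger values for Msh6, and whether they differed from each other was not tested. The ratio of their normalized counts, Msh6 over Msh3, was 5.62 and 6.29 at 0 h, 9.17 and 10.6 at 6 h, and 7.70 and 6.95 at 12 h.

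Among the MutL-type genes, Pms2 and Pms1 rose and Mlh3 did not pass the test. Pms2 (ENSMUSG00000079109.11, chr5:143909964-143933968, plus strand), the endonuclease subunit, was at 367 and 390 at 0 h, 549 and 480 at 2 h, 997 and 923 at 6 h, and 1082 and 1116 at 12 h in the E2F1 line. Each time point lay above the one before without overlap. Its log2 change was 1.34 at 6 h (SE 0.15, limma adjusted p = 5.9e-07) and 1.54 at 12 h (7.81e-08). Pms1 (ENSMUSG00000026098.13, chr1:53189187-53297018, minus strand), a MutL-type gene whose product has a less settled part in repair, was at 148 and 184 at 0 h, 148 and 104 at 2 h, 595 and 609 at 6 h, and 607 and 758 at 12 h. Its libraries at 6 and 12 h were above every other library of the gene, and the change was 1.86 at 6 h (SE 0.31, adjusted p 7.86e-05) and 2.03 at 12 h (1.97e-05). In the authors' deposited table for 12 h, the log2 fold change of Pms1 was 2.046.

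Mlh3 (ENSMUSG00000021245.15, chr12:85234520-85270599, minus strand), best known for crossing over in meiosis, was the lowest member per kilobase at 0 h in the E2F1 line. It was at 119 and 128 at 0 h, 54 and 103 at 2 h, 69 and 114 at 6 h, and 271 and 230 at 12 h. The 12 h libraries were the highest of all 22, yet the log2 change from 0 h of 1.01 (SE 0.51) had a limma adjusted p of 0.093. With quantile normalization it was 1.21 (0.0399), and with only the groups compared in the model its adjusted p was 0.00156. Over all alternatives that kept the libraries of both groups the adjusted p ran from 0.00156 to 0.112. The mean of Mlh3 over all libraries was 110.2, near 99.6, the lowest mean of any gene analysed. Its 12 h libraries raise that mean, so Mlh3 may be among the genes analysed only through the group where it is high. Whether it would be among them without that group was not tested. From 6 to 12 h Mlh3 rose by 1.48 (adjusted p 0.0309). That call was lost without E2F1 6 h replicate 1 (1.12, p 0.202), without 12 h replicate 1 (1.36, p 0.13) and without 12 h replicate 2 (1.60, p 0.0811).

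Ung and Neil3 took opposite courses after 6 h. Ung (ENSMUSG00000029591.14, chr5:114130386-114139323, plus strand) was at 260 and 197 at 0 h, 302 and 355 at 2 h, 1303 and 1153 at 6 h, and 327 and 334 at 12 h. The 6 h libraries stood far above the others of the line, and those of 12 h fell within the range of the 2 h libraries. Its log2 change was 2.43 at 6 h (SE 0.32, limma adjusted p = 5.21e-06) and 0.54 at 12 h (0.149), and the step from 6 to 12 h was −1.89 (0.000255). The authors' deposited table for 6 h gives Ung a log2 fold change of 2.469.

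Neil3 (ENSMUSG00000039396.11, chr8:53586867-53639065, minus strand) was at 442 and 378 at 0 h, 378 and 436 at 2 h, 891 and 604 at 6 h, and 3524 and 3502 at 12 h. The 12 h libraries were higher than all the rest by a wide gap. The change was 0.84 at 6 h (SE 0.39, limma adjusted p = 0.0765) and 3.10 at 12 h (1.85e-06), with a step of 2.26 from 6 to 12 h (0.000273). Of the 8 members, 2 rose and 1 fell over that step, in which 15.1% of all genes rose and 20.2% fell (2130 and 1771 genes with equal totals, in place of 1688 and 2265). The ratio of normalized counts, Neil3 over Ung, was 1.70 and 1.92 at 0 h, 0.684 and 0.524 at 6 h, and 10.8 and 10.5 at 12 h. In the authors' deposited table for 12 h Neil3 had a log2 fold change of 3.11. Per kilobase, Neil3 rose from 73.8 to 632 normalized counts and became the member second to Msh6 at 12 h.

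Smug1 (ENSMUSG00000036061.10, chr15:103153290-103167092, minus strand), which encodes a further uracil glycosylase of the nucleus, varied least of the 8 over the groups. It was at 810 and 662 at 0 h, 837 and 823 at 2 h, 600 and 624 at 6 h, and 711 and 767 at 12 h in the E2F1 line. Its highest group mean over all 11 groups was 1.36 times its lowest, against 36.2 times for Ung and 65.7 times for Neil3. The log2 change at 12 h was 0.01, with a 95% confidence interval from −0.30 to 0.32, and at 6 h it was −0.26, with an interval from −0.57 to 0.05. The sign at 12 h changes with the scaling (−0.08 with quantile normalization, −0.05 with equal totals). At 6 h the equal-totals value of −0.38 passed the test (adjusted p 0.0467, range over the alternatives that kept the libraries of both groups 0.0467 to 0.169). From 2 to 6 h of doxycycline Smug1 fell by 0.44 (SE 0.15, limma adjusted p = 0.0199), with no overlap between the libraries, in a comparison in which 20.2% of all genes fell. Leaving out any of these 4 libraries, E2F1 2 h or 6 h replicates 1 or 2, ended that call, at −0.47 to −0.41 with an adjusted p from 0.0534 to 0.0937. The ratio of normalized counts, Ung over Smug1, went from 0.321 and 0.298 at 0 h to 2.17 and 1.85 at 6 h and to 0.460 and 0.436 at 12 h.

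**Figure D2:**
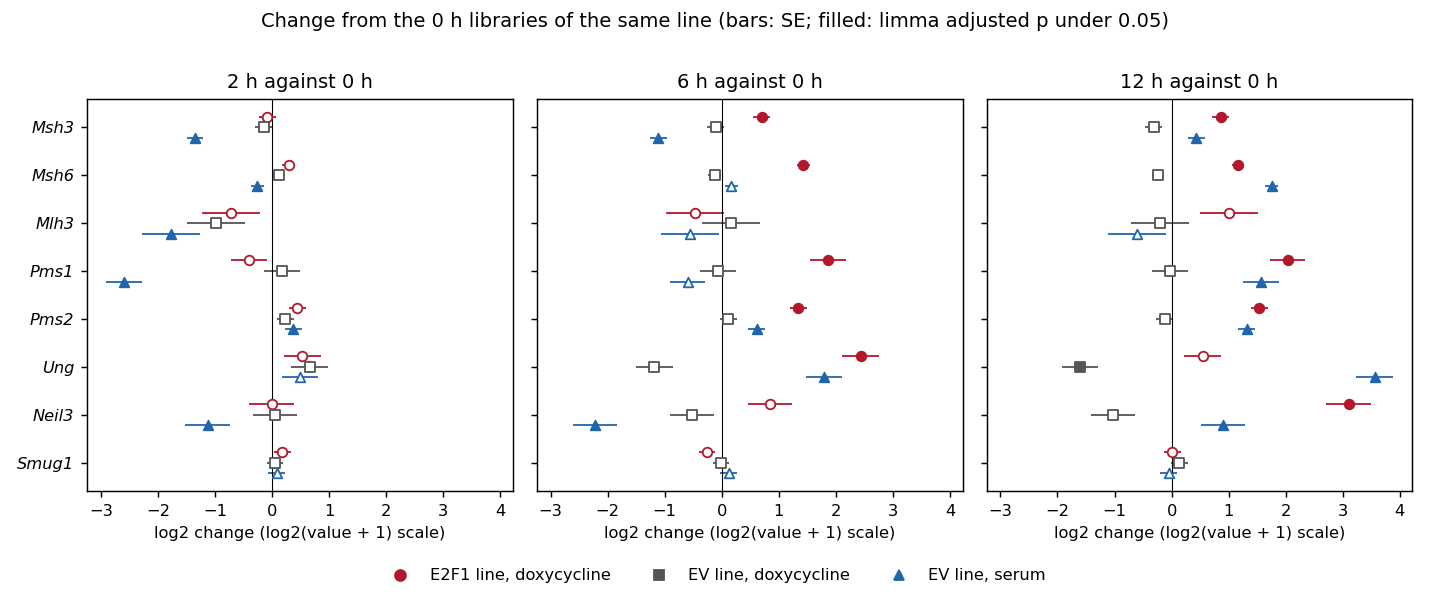
Log2 change from the 0 h libraries of the same line, on the log2(value + 1) scale, with bars of 1 SE, at 2, 6 and 12 h. Filled symbols passed the limma test; in the E2F1 line (red) 5 genes did at 6 h and 5 at 12 h, and in the EV line under doxycycline (grey) Ung at 12 h alone did.

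Doxycycline in the EV line served as the control for the drug, for the vector and for further time in low serum. At 2 h 0 of 8 members passed the limma test, where 7.35% of all genes did, and 0 had an unadjusted p under 0.05. At 6 h 0 of 8 passed, where 0.134% of all genes did, and Ung had an unadjusted p under 0.05. At 12 h Ung fell, 1 of 8 members, where 3.42% of all genes fell. Its EV levels were 90 and 164 at 0 h, 238 and 155 at 2 h, 39 and 72 at 6 h, and 32 and 48 at 12 h. The 12 h libraries lay below those at 0 h, and the log2 change was −1.61 (SE 0.32, limma adjusted p = 0.00824). The call was lost without EV 0 h replicate 2 (−1.18, p 0.245), without EV 12 h replicate 1 (−1.32, p 0.136) and with only these groups in the model (0.154). In this line Neil3 went from 203 and 309 at 0 h to 75 and 198 at 12 h, a change of −1.03 (0.163), which passed the test without EV 12 h replicate 2 (−1.73, p 0.0243). Msh3, over the 8 EV doxycycline libraries, ranged from 371 to 502, Msh6 from 2116 to 2797, Pms1 from 76 to 171 and Pms2 from 298 to 444, and none of them passed the test at any time.

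The difference between the lines in their change under doxycycline was tested directly. At 6 h 5 members differed, all with the more positive change in the E2F1 line, where 22.2% of all genes differed in that direction. At 12 h 6 members did, again all upward, where 27.3% of all genes did. At 2 h 0 of 8 differed by limma, 0 of them with an unadjusted p under 0.05, where 0.143% of all genes did. For the MutS genes the 12 h difference was 1.40 for Msh6 (limma adjusted p = 9.74e-07) and 1.17 for Msh3 (0.000151). For the MutL-type genes it was 1.66 for Pms2 (3.61e-06), 2.07 for Pms1 (0.000781) and 1.22 for Mlh3 (0.168). Among the glycosylases it was 4.13 for Neil3 (SE 0.55, adjusted p 6.12e-06), 2.15 for Ung (0.000691) and −0.12 for Smug1 (0.651, 95% interval −0.56 to 0.31). Ung thus differed between the lines at 12 h although its own change in the E2F1 line (0.54) did not pass the test. The larger part of that difference was its change of −1.61 in the EV line. At 6 h the difference for Ung was 3.61 (adjusted p 6.58e-06) and that for Neil3 was 1.36 (0.0625), the second of which passed without EV 0 h replicate 1 (1.66, p 0.042) or EV 6 h replicate 2 (1.83, p 0.0216).

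Serum gave another order of events, with an early fall of several members and a late rise. At 2 h 1 member rose and 5 fell, where 37.5% of all genes rose and 33.5% fell (2611 and 5907 genes with equal totals, in place of 4200 and 3752). Pms1 fell furthest, from 86 and 118 at 0 h to 18 and 14, the lowest levels of this gene in any library. Its log2 change was −2.59 (SE 0.31, limma adjusted p = 6.27e-07), and −2.667 in the authors' deposited table for that time. Msh3 went from 502 and 500 to 223 and 172, a change of −1.35 (1.85e-07), with no overlap. Mlh3 went from 124 and 131 to 77 and 17, 2 libraries far apart, and its change of −1.78 (0.0045) was −0.72 without serum 2 h replicate 2 (p 0.176). Neil3 went from 203 and 309 to 127 and 102, a change of −1.13 (0.0142). Its call was lost without EV 0 h replicate 2 (−0.83, p 0.127) and without serum 2 h replicate 2 (−0.97, p 0.087), and with quantile normalization (−0.61, p 0.163), under which that of Mlh3 was lost too (−0.88, p 0.123).

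The smaller 2 h calls in serum were less settled. Msh6 went from 2404 and 2764 to 2130 and 2183, a change of −0.26 (limma adjusted p = 0.0471). This call was lost without the 2 h doxycycline libraries in the model (p 0.0583) and without EV 0 h replicate 2 (−0.16, p 0.31), serum 2 h replicate 1 (−0.24, p 0.147) or serum 2 h replicate 2 (−0.28, p 0.098). Pms2 went from 327 and 322 to 413 and 428, a change of 0.37 (0.0315) that was −0.001 with equal totals (p 0.995). Leaving out any of its 4 libraries, EV 0 h or serum 2 h replicates 1 or 2, put it at 0.35 to 0.40 with an adjusted p from 0.0687 to 0.111. Ung, at 135 and 216, did not pass at 2 h (0.49, p 0.182), and did without EV 0 h replicate 2 (0.92, p 0.032) and with quantile normalization (1.03, p 0.00794). The scaling mattered at this time. The median change of all genes was 0.03 in the deposited values, and equal totals moved it by −0.37 and quantile normalization by −0.08.

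At 6 h of serum 2 members rose and 2 fell, where 36.5% of all genes rose and 31% fell (2914 and 4772 genes with equal totals, in place of 4093 and 3470). Ung, at 465 and 385, had risen by 1.79 (SE 0.32, limma adjusted p = 8.04e-05), and Pms2, at 467 and 529, by 0.61 (0.00133). Neil3 was at its lowest in any library, 45 and 62, a change of −2.22 (5.94e-05), and the authors' deposited table gives −2.222. Msh3, at 229 and 232, was still lower by 1.12 on the log2 scale (a change of −1.12, adjusted p 2.67e-06). Pms1, at 74 and 59, had a change of −0.60 (0.097). The value passed without the 2 h doxycycline libraries (p 0.0389) and with equal totals (−0.81, p 0.0257), and turned to 0.09 with quantile normalization (p 0.842). In the same hours the members thus moved in different directions, Ung up and Neil3 down.

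By 12 h of serum 6 members had risen and none fallen, where 36% of all genes rose and 29.7% fell. Ung reached 1522 and 1370, its highest levels in the series, with a change of 3.56 (SE 0.32, limma adjusted p = 2.99e-08) and 3.591 in the authors' deposited table. Msh6, at 9050 and 8369, rose by 1.76 (5e-10), Pms1, at 285 and 316, by 1.57 (0.000263), and Pms2, at 909 and 718, by 1.31 (4.58e-07). Msh3, at 702 and 651, rose by 0.43 (0.016). That call was lost without EV 0 h replicate 1 (0.43, p 0.0562), EV 0 h replicate 2 (0.43, p 0.0553) or serum 12 h replicate 1 (0.38, p 0.0937). Neil3, at 507 and 435, rose by 0.90 (SE 0.39, adjusted p 0.0477). Without EV 0 h replicate 1 its change was 0.60 (p 0.283), without serum 12 h replicate 1 it was 0.79 (0.173), without serum 12 h replicate 2 it was 1.01 (0.082), and with equal totals it was 0.82 (0.0703).

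Mlh3 and Smug1 did not pass at 12 h of serum. Mlh3, at 91 and 77, had a change of −0.60 (limma adjusted p = 0.307) and Smug1, at 675 and 711, one of −0.05 (95% interval −0.36 to 0.26). Between 6 and 12 h of serum 6 members rose and none fell, where 19.3% of all genes rose (3184 genes with equal totals, in place of 2164). The steps were 3.13 for Neil3 (4.73e-06), 2.17 for Pms1, 1.77 for Ung (0.000254), 1.59 for Msh6, 1.55 for Msh3 and 0.70 for Pms2. Against EV libraries given doxycycline for the same 12 h, which had no serum added, 6 members were higher, where 37.9% of all genes were. Ung stood furthest apart there, with a log2 difference of 5.17 (limma adjusted p = 1.65e-10), followed by Msh6 with 1.99 (4.99e-11) and Neil3 with 1.94 (0.000226).

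The changes from 0 h under E2F1 and under serum were then compared directly. At 6 h 5 members differed, all with the higher change under E2F1, where 30.3% of all genes differed in that direction. These were Neil3 (3.07, limma adjusted p = 0.000111), Pms1 (2.46, 0.000117), Msh3 (1.81, 8.87e-07), Msh6 (1.26, 2.24e-06) and Pms2 (0.73, 0.00637). Ung did not differ past the threshold at 6 h (0.64, p 0.236). At 12 h 1 member had the higher change under E2F1 and 2 under serum, where 25% of all genes had the higher change under E2F1 and 23.8% under serum. Neil3 was the one higher under E2F1, by 2.20 (0.00289). Ung changed less under E2F1, by −3.02 (SE 0.45, adjusted p 2.99e-05), and so did Msh6, by −0.59 (0.00471). The difference of 0.43 between the lines at 0 h enters the Msh6 value. At 12 h Msh6 was at 7875 and 7686 under E2F1 and at 9050 and 8369 under serum. Line and stimulus cannot be told apart in this comparison, since only the EV line was given serum. Msh3, Pms1 and Pms2 had differences of 0.43 (p 0.0982), 0.47 (0.405) and 0.22 (0.403) at 12 h. The interval for Pms1 ran from −0.46 to 1.40, so a difference of more than 1 log2 unit in favour of E2F1 lies within it. The value for Msh3 passed without E2F1 0 h replicate 1 (0.61, p 0.0379). Mlh3 had a difference of 1.61 (0.0726).

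**Figure D3:**
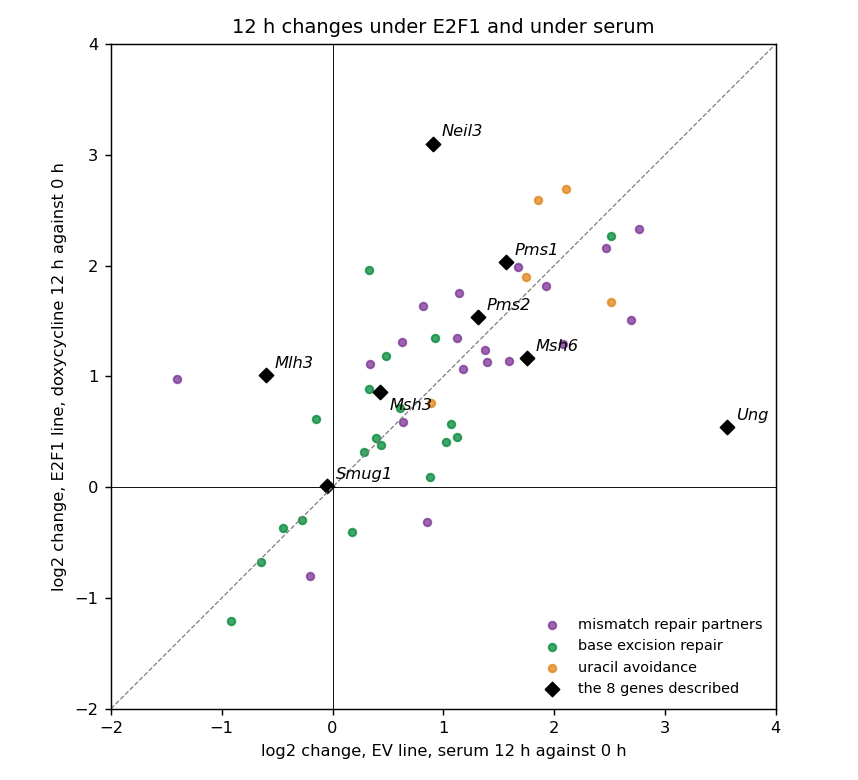
Log2 change at 12 h of doxycycline in the E2F1 line (vertical) against that at 12 h of serum in the EV line (horizontal), both against 0 h of the same line and on the log2(value + 1) scale. Diamonds are the 8 genes described and points the genes of 3 repair lists; on the dashed line both changes are equal. Neil3 (3.10 and 0.90) and Ung (0.54 and 3.56) lie farthest from it on opposite sides.

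The order of the groups differed between members. Msh3, Pms1 and Pms2 were highest at 12 h of E2F1, followed by 6 h of E2F1 and 12 h of serum, and for Msh3 and Pms1 the first 2 groups overlapped. Msh6 was highest at 6 h of E2F1 and Ung at 12 h of serum. Across the 11 group means of log2 values, Msh3 and Pms1 ran most alike (Pearson r 0.95), followed by Msh6 and Pms2 (0.932) and by Msh3 and Neil3 (0.90), while for Ung and Neil3 r was 0.407. Smug1 had a negative r with each of the other members, from −0.544 to −0.142. These values are descriptions over 11 groups of 2 libraries that share their starvation and scaling. Among all other genes, those most like Ung were Apex1 (r 0.977), the endonuclease that acts after a glycosylase, and the replication licensing genes Mcm2 (0.951) and Cdc6 (0.947). Those most like Pms2 were Dut (0.987), whose product removes dUTP, Xpo1 (0.987) and Ccne1 (0.986). For Msh6 they were Klhl23 (0.986), the chromatin assembly gene Chaf1a (0.985) and Wdhd1 (0.984), and for Msh3 Trmt2b (0.975), the recombination gene Brca2 (0.974) and Gm14117 (0.973). For Neil3 they were Aldh16a1 (0.987), Babam1 (0.984) and Nova1 (0.981), for Pms1 Atl3 (0.981), Fndc10 (0.981) and 9230114K14Rik (0.978), and for Mlh3 Vps45 (0.955), Xiap (0.926) and Hikeshi (0.923). For Smug1 the closest genes reached 0.875 (Zfp790), 0.869 (Zfp322a) and 0.808 (Them4).

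Partners of the members in the same pathways were counted from lists. Of 19 mismatch repair partners tested (of 20 listed: the nuclease Exo1, the clamp and its loader, replication protein A, polymerase delta, ligase and MutS relatives), 15 rose and 1 fell at 6 h of E2F1, and 17 rose and 2 fell at 12 h. Of all genes 28.8% rose and 22.9% fell at 6 h, and 31.8% and 29.7% at 12 h. Their median log2 change at 12 h was 1.29. In the EV line 9 of them fell and none rose at 12 h of doxycycline, where 3.42% of all genes fell. In serum 2 rose and 12 fell at 2 h, where 37.5% of all genes rose and 33.5% fell, and with equal totals 0 rose and 14 fell. At 12 h of serum 17 rose and 1 fell, with a median of 1.18, where 36% of all genes rose and 29.7% fell. As with Msh3 and Pms1, more of them were lower at 2 h of serum and more were higher at 12 h. Exo1, which removes the strand with the error, went from 593 and 476 at 0 h to 2619 and 2737 at 12 h of E2F1, a change of 2.33 (limma adjusted p = 5.96e-06), and it rose by 2.77 at 12 h of serum. Rpa2, a subunit of the single-strand binding protein, rose by 2.70 at 12 h of serum (7.57e-10). Among those that fell were the polymerase delta subunit Pold4, by 0.80 at 12 h of E2F1 (a change of −0.80, adjusted p 0.000673), and the meiotic gene Msh5 at 12 h of serum (−1.41, 0.000475).

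Base excision repair moved less evenly. Of 19 genes tested (of 20 listed), 8 rose and 5 fell at 6 h of E2F1, and 13 rose and 3 fell at 12 h, with a median change of 0.45. Of all genes 28.8% rose and 22.9% fell at 6 h, and 31.8% and 29.7% at 12 h. At 6 h the median change of the list was 0.41 and that of all genes −0.03. At 12 h of serum 11 rose and 3 fell, with a median of 0.39, where 36% of all genes rose and 29.7% fell. With quantile normalization 10 rose and 5 fell at 12 h of E2F1, and 8 rose and 3 fell at 12 h of serum. The glycosylase genes Neil1 and Nthl1, which act on oxidised bases as Neil3 does, fell under both stimuli. Neil1 went from 225 and 275 at 0 h to 111 and 103 at 12 h of E2F1, and from 368 and 351 to 168 and 216 at 12 h of serum. Its changes were −1.21 (limma adjusted p = 0.00106) and −0.91 (0.00798), and those of Nthl1 were −0.68 (0.00885) and −0.64 (0.0116). Neil3 rose at the same 2 points, but its rise at 12 h of serum (0.90, limma adjusted p = 0.0477) was lost in several settings. With equal totals it was 0.82 (0.0703).

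Genes that supply thymidylate or break down nucleotides such as dUTP, listed here under uracil avoidance, rose at the later times. All 5 described (Dut, Tyms, Tk1, Shmt1 and Samhd1) rose at 6 and 12 h of E2F1, with medians of 1.48 and 1.90, and all 5 rose at 12 h of serum, with a median of 1.85. Of all genes 28.8%, 31.8% and 36% rose in these comparisons. Earlier in serum they split, with Shmt1 higher (log2 change 1.36) and Tk1 (−0.90) and Samhd1 (−0.80) lower at 2 h, and Shmt1 (1.06) and Dut (0.63) higher and Tk1 (−0.71) lower at 6 h. Tk1, thymidine kinase, went from 2466 and 1989 at 0 h to 13843 and 14817 at 12 h of E2F1, a change of 2.69 (limma adjusted p = 2.94e-09). Tyms, thymidylate synthase, went from 1136 and 1062 to 6611 and 6618, a change of 2.59 (1.18e-09). These genes were still raised at 12 h of E2F1, when Ung was at 327 and 334. For reference, 13 of 14 S phase genes rose at 12 h of E2F1 (median 1.22) and 14 of 14 at 12 h of serum (2.34). Of 12 G2/M genes, 12 rose at 12 h of E2F1 (median 2.26), and 6 rose and 1 fell at 12 h of serum (0.57). In the EV line at 12 h of doxycycline, where Ung fell, 12 of 14 S phase and 10 of 12 G2/M genes fell too, against 3.42% of all genes. Between the lines at 0 h 10 of 14 S phase genes and 0 of 12 G2/M genes were higher in the E2F1 line, against 8.86% of all genes. The share of cells in each phase and the RNA per cell cannot be told apart in these bulk libraries, and their part in the members' changes was not tested.

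Pms1 and Pms2 each have a gene that starts within 1000 bases on the opposite strand, and these pairs were chosen from the annotation after the values had been seen. Ormdl1, which acts in sphingolipid control, starts 77 bases from Pms1, and Aimp2, a tRNA synthetase scaffold gene, 117 bases from Pms2. Pms1 and Ormdl1 moved in the same direction in most comparisons. Under E2F1 Ormdl1 went from 170 and 157 at 0 h to 937 and 777 at 6 h and 639 and 745 at 12 h, with changes of 2.38 (limma adjusted p = 1.01e-06) and 2.07 (3.69e-06). In serum it was −0.97 at 2 h (0.00407), −0.76 at 6 h (0.021) and 1.70 at 12 h (2.97e-05), where Pms1 had −2.59, −0.60 and 1.57.

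Aimp2 and Pms2 rose in different proportions. Under E2F1 Aimp2 rose by 0.63 at 6 h (limma adjusted p = 0.000585) and 0.67 at 12 h (0.000236), where Pms2 rose by 1.34 and 1.54. In serum Aimp2 rose by 1.22 at 2 h (1.29e-07), 1.66 at 6 h (3.56e-09) and 1.60 at 12 h (8.51e-09), where Pms2 rose by 0.37, 0.61 and 1.31. Whether the genes of a pair differ was not tested. Exons of Msh3 and of 3 further members overlap those of other genes. Those of Msh6 overlap Fbxo11, those of Pms1 overlap the antisense gene Gm28777 and those of Pms2 overlap Gm42421 and Rsph10b. The last 2 lie on the same strand as Pms2, so strand would not separate their reads from those of Pms2. For the others, whether the counting used strand is not given in the sources used here. Reads from these stretches thus cannot be told apart, and the values of these members carry that limit. No exon of Ung, Neil3, Smug1 or Mlh3 overlapped an exon of another gene in the annotation.

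**Figure D4:**
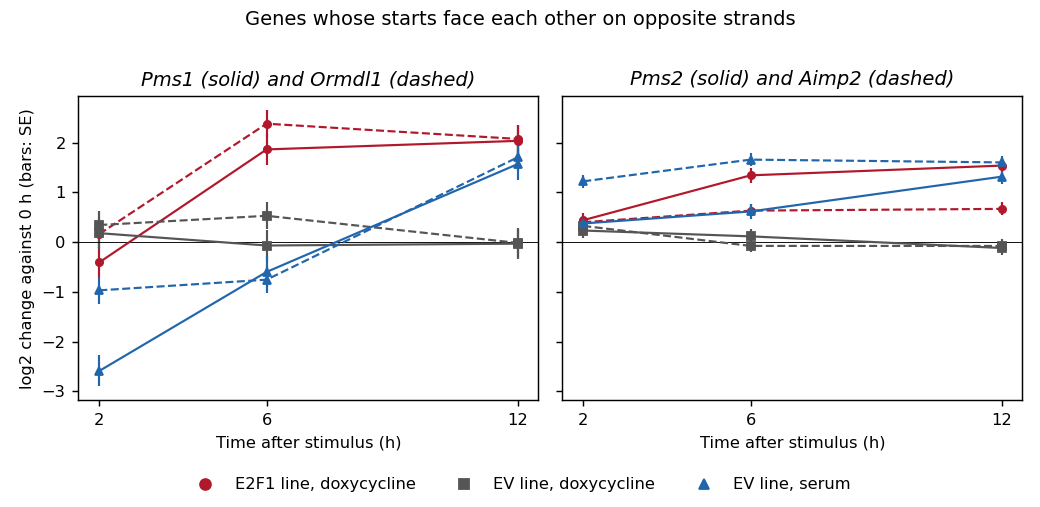
Log2 change from 0 h (log2(value + 1) scale, bars of 1 SE) at 2, 6 and 12 h for Pms1 and Pms2 (solid) and the gene that starts beside each on the opposite strand (dashed). Pms1 and Ormdl1 both rose under E2F1 (red) and at 12 h of serum (blue), whereas Aimp2 was higher than Pms2 at each serum time and lower at 6 and 12 h of E2F1.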

How the data were processed

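RNA-seq libraries of polyadenylated RNA, 150 bp paired-end per the labels' protocols, were analysed from a table of normalized counts. These values were treated as a score, since the authors deposited them scaled and rounded to whole numbers. The submitters' processing notes name FastQC, Trimmomatic, HISAT2, featureCounts, DESeq2 and build mm10, with no version, and the use of strand and the scaling are not given in the sources used here. Further tables hold the authors' log2 fold changes against 0 h as deposited. They also give the authors' adjusted p-value for each gene, and leave out genes whose log2 change was smaller than about 2 in size.

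Groups and replicate numbers came from the labels. A filter on low values (10 or higher in no fewer than 2 libraries) kept all 11208 genes. Log2(value + 1) was fitted with limma 3.58.1 in R 4.3.3, as 11 group means over 22 libraries, leaving 11 residual degrees of freedom, and variances were moderated by empirical Bayes along a mean-variance trend. Benjamini-Hochberg adjustment was made per comparison, with a threshold of 0.05, and the code was tested on simulated data. Library medians ran from 1242.5 to 1434.5, and the depth in reads is unknown. Gene positions came from GENCODE M21, in which 10977 identifiers had the same version.

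The members and lists were chosen with earlier results of these data known. Named were all members, E2f1, the 3 listed repair genes with the largest rise and the 3 with the largest fall at 12 h of each stimulus, the 3 genes most like each member, and genes that start beside Pms1 and Pms2. Alternatives were a pseudocount of 8, no filter, a mean of at least 500, quantile normalization, equal totals, a block for the replicate number, a model of only the groups compared, and one without the 2 h doxycycline libraries or without each replicate. The results of 1 further listed gene are not reported here.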

Additional observations from a re-analysis of the deposited data

Results flagged for a closer look

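The change under doxycycline differed between the E2F1 and EV lines by a direct limma test for 5 members at 6 h and for 6 at 12 h. All had the more positive change in the E2F1 line, where 22.2% of all genes differed in that direction at 6 h and 27.3% at 12 h. For Ung at 12 h the log2 change was 0.54 in the E2F1 line, which did not pass the test, and −1.61 in the EV line. At 6 h the differences, E2F1 line minus EV line in log2 units, were 0.80 for Msh3, 1.55 for Msh6, 1.93 for Pms1, 1.23 for Pms2 and 3.61 for Ung. At 12 h they were 1.17 for Msh3, 1.40 for Msh6, 2.07 for Pms1, 1.66 for Pms2, 2.15 for Ung and 4.13 for Neil3. Groups of 2 libraries were too small for a check of single outlying libraries.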

How the results depend on the processing

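Of 691 member values under settings that kept 2 libraries in each group, 663 kept direction and side of the threshold, 12 lost and 12 gained the call, and 4 changed sign; with 1 library left out, leaving its partner assumed to vary like the other groups, 430 of 472 held. The values counted were the called ones and the uncalled ones reported here. Nearly all values of the steps from 2 to 6 h, and of serum at 2 h against E2F1 or EV doxycycline, were left out. A gained call among uncounted values is therefore not seen. A pseudocount of 8 changed no member call. The setting with no filter could change none, since the filter had kept all 11208 genes, and its 91 values are among the 663. With a mean of at least 500, under which Mlh3, Pms1 and Ung are not tested, members called were 3 at E2F1 6 h, 3 at serum 12 h, 3 for the line difference at 6 h, 0 at EV doxycycline 12 h, 1 from 6 to 12 h of E2F1 and 2 from 2 to 6 h of serum. With only the groups compared they were 0 at EV doxycycline 12 h and 0 between the lines at 0 h (Msh6, p 0.0614), while Neil3 at E2F1 6 h (p 0.00364), Ung and Mlh3 at E2F1 12 h (0.0292 and 0.00156), Msh6 from 6 to 12 h of E2F1 (0.0258) and Mlh3 in the line difference (0.0112) and against serum at 12 h (0.00339) passed. Leaving out single libraries gave 0 to 2 members called at EV doxycycline 12 h, 0 to 2 between the lines at 0 h, and 2 to 5 at serum 2 h.

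Values that changed sign were Smug1 at E2F1 12 h (−0.082 with quantile normalization, −0.046 with equal totals, −0.133 to 0.157 with single libraries left out), at serum 12 h (−0.169 to 0.072 with single libraries left out) and in the line difference at 12 h (−0.268 to 0.022), Pms1 at serum 6 h (0.088, quantile normalization) and Pms2 at serum 2 h (−0.001, equal totals); the cause was not tested. Equal totals moved the median of all genes by −0.37 at serum 2 h and by −0.12 at E2F1 6 h, and turned 2493 higher and 1373 lower line differences at 6 h into 2101 and 2251, 3059 and 2606 at 12 h into 2799 and 2993 (2659 and 3457 with quantile normalization), and 993 and 691 between the lines at 0 h into 1345 and 524. Counts over all genes that moved by over 1.5 times were those of E2F1 2 h (208; 26 without E2F1 0 h replicate 2 to 596 with only its groups), EV doxycycline 2 h (824; 157 without EV 2 h replicate 2), 6 h (15; 1 with only its groups to 30 without EV 0 h replicate 1) and 12 h (467; 26 without EV 0 h replicate 2 to 803 without replicate 1), the line difference at 2 h (16; 2 to 51) and the lines at 0 h (1684; 652 with only these groups). Over 55 pairs of groups, same-numbered libraries had a median correlation of deviations of 0.031 (−0.277 to 0.455), with 18 pairs over 0.1 and 6 under −0.1. The samples were treated as unpaired, and a median over all pairs cannot show whether some groups share a batch. The replicate block kept 91 of 91 member values and the 5 calls at E2F1 12 h.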
